A study of Mus musculus with 34 samples.

Results

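The DEAD-box and DEAH-box RNA helicases are enzymes that spend ATP to bind, remodel or unwind RNA, and mouse genes for them carry the symbols *Ddx* and *Dhx*. Every gene of the deposited RNA-seq table with such a symbol and a mean level of at least 0.5 FPKM over the 6 libraries was taken, apart from 2 genes not reported here. FPKM divides a gene's fragment count by its length and by a size set for the library. This gave 47 genes (32 *Ddx* and 15 *Dhx*) of the 22040 in the table, among 12305 genes that reached the same level and were tested. A further 4 helicase genes lay below it.

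The libraries were made from limb buds of E11.5 mouse embryos, 3 labelled *Hnrnpk* WT and 3 labelled *Hnrnpk* CKO. CKO embryos are *Prrx1-Cre;Hnrnpk* fl/fl, and *Hnrnpk* encodes hnRNP K, a protein that binds cytosine-rich RNA and DNA. The sources used here do not give the floxed or Cre alleles of the WT embryos, and embryos of both sexes were used. *Prrx1-Cre* acts in limb bud mesenchyme, so ectoderm, vessels, blood and muscle precursors in the same tissue need not lose the gene. Depth, as reads recovered over the table's genes, was 17219134 in WT replicate 1, 23165036 in WT replicate 2 and 20869696 in WT replicate 3. The CKO libraries held 17140887, 21190300 and 24624442 reads in the same order. The library sizes behind the deposited FPKM, worked out from the values, were not these depths. Reads per unit of that size were 0.955, 0.968 and 0.957 in WT but 0.947, 1.11 and 1.03 in CKO, so FPKM of CKO replicates 2 and 3 stand higher than scaling by reads would put them.

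Helicases of these families share a core of paired RecA-like domains that closes on RNA and ATP. DEAD-box enzymes mostly pry apart short duplexes locally or clamp RNA as assembly platforms, whereas DEAH-box enzymes pull on a strand and drive spliceosome and ribosome remodelling, often switched on by G-patch partner proteins. Growing embryonic tissue makes many ribosomes, and a large share of the family works in the nucleolus on ribosomal RNA.

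*Hnrnpk* itself had 193, 195 and 185 FPKM in the WT libraries and 127, 142 and 135 FPKM in the CKO libraries. The CKO libraries were all lower than the WT libraries, with a log2 fold change of -0.50 (standard error, SE, 0.13; adjusted *p* = 0.334 by limma). With the replicate number as a block, a pairing that the values bear out mainly for number 1, the adjusted *p* was 0.0575. Over the alternatives it ran from 0.0300 to 1, the lowest with voom and the block. Gene-level FPKM also counts exons outside the deleted region, its exons share 330 bases with *Rmi1* on the opposite strand, and in bulk limb bud RNA fewer expressing cells and less RNA per cell cannot be told apart.

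Before the helicases are described, 1 feature of the libraries matters. The libraries numbered 1 of both groups stood apart from the rest on the first principal component, which held 52.6% of the variance, so differences are also given by replicate number below. What the number stands for is not given in the sources used here.

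Helicase genes were abundant. Their median mean level was 15.8 FPKM against 7.07 FPKM over all genes tested, and 33 of the 47 reached 10 FPKM, which is 70.2% against 39.5% of all genes. Together the 47 genes summed to 1358, 1262 and 1267 FPKM in WT and 1421, 1389 and 1393 FPKM in CKO. As a share of the FPKM outside the globin genes the sums overlapped, at 0.574%, 0.484% and 0.516% in WT and 0.616%, 0.468% and 0.504% in CKO. *Ddx5*, a splicing and transcription cofactor, was highest at a mean of 221 FPKM. *Ddx39b* (128 FPKM), which loads export factors on mRNA, *Ddx17* (126 FPKM), the close paralog of *Ddx5*, and *Dhx9* (72.3 FPKM), which unwinds RNA in translation and at R-loops, came next. At the other end, *Ddx58*, the cytosolic sensor of viral RNA known as RIG-I, lay just inside the threshold with a mean of 0.83 FPKM. *Dhx58*, a related regulator of that sensor, lay just outside it at 0.435 FPKM, and its reads numbered 20 to 42 per library. The germ cell genes *Ddx4* and *Ddx43* and the interferon-induced *Ddx60* had means of 0.265, 0.194 and 0.0252 FPKM.

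Across the whole family, no helicase gene passed the adjusted threshold. CKO was compared with WT by limma on log2(FPKM + 0.1), a scale that understates changes of low genes, with *p* adjusted over all 12305 genes. At an adjusted *p* under 0.05, 0 of the 47 helicase genes were called, against 8 of all genes (0.0650%). Fitted with the replicate block, the model called 0 helicase genes and 346 of all genes (2.81%). Voom on whole reads recovered from the FPKM, added after the data were seen, called 0 of the 47 and 2 with the block, *Ddx39* and *Ddx31*, where 192 of all genes (1.56%) were called higher. None was at a fold of at least 2 with an unadjusted *p* under 0.05, a rule met by 82 of all genes (0.666%). Intervals of 95% for the single helicase genes all lay between -0.80 and 0.83 on the log2 scale.

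Most of the small differences in the deposited FPKM pointed upward. The log2 fold change was above 0 for 35 of the 47 (50.9% of all genes were above 0), and the median was 0.12 against 0.0048 over all genes. At an unadjusted *p* under 0.05, 6 were higher in CKO (2.84% of all genes) and 0 were lower (5.46% of all genes). That count of 6 depended on single libraries: it was 3 without CKO replicate 2, 2 without CKO replicate 3, and 1 without WT replicate 2 or WT replicate 3. The count was 8 without CKO replicate 1, 7 without WT replicate 1 and 8 with the replicate block. With the block, 2263 of the 12305 genes tested passed in either direction, beside these 8 of the 47. The same count was 3 without the eBayes trend, 1 with FPKM rescaled as described next and 13 in replicates 2 and 3 alone. Apart from the block, shares of all genes at the unadjusted threshold are not given for these alternatives. Their counts therefore cannot be set against the 2.84% of the main fit. Replicates 2 and 3 alone called 867 of the 12305 genes (7.05%) higher even at an adjusted *p* under 0.05. In that last comparison 1 gene was lower, *Ddx17* (unadjusted *p* = 0.0460 by limma). Within all 3 replicate numbers, CKO exceeded WT for 18 helicase genes (38.3%, against 18.2% of all genes) and lay below it for 3 (6.38%, against 21.3%). Groups did not overlap for 11 genes higher in CKO (5.63% of all genes) and for 1 lower (8.86% of all genes). With FPKM rescaled to the same sum without the globin genes, all genes shifted by -0.10 in the median, and 26 of the 47 were above 0. The helicase median was then 0.11 above that of all genes, close to the 0.12 above it without the rescaling, and with quantile normalization it was 0.06 above. Rescaling to the recovered reads, added after the data were seen, also left 26 of the 47 above 0 and 2 higher at an unadjusted *p* under 0.05. The helicase median was then 0.02 and that of all genes -0.09, a difference of 0.11. With median-ratio scaling the counts at an unadjusted *p* under 0.05 stayed at 6 higher and 0 lower. How many helicase genes lie above 0 thus depends on the scaling. The helicase median lay above that of all genes in each scaling whose medians are given here, so the upward direction is relative to all genes.

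**Figure D1:**
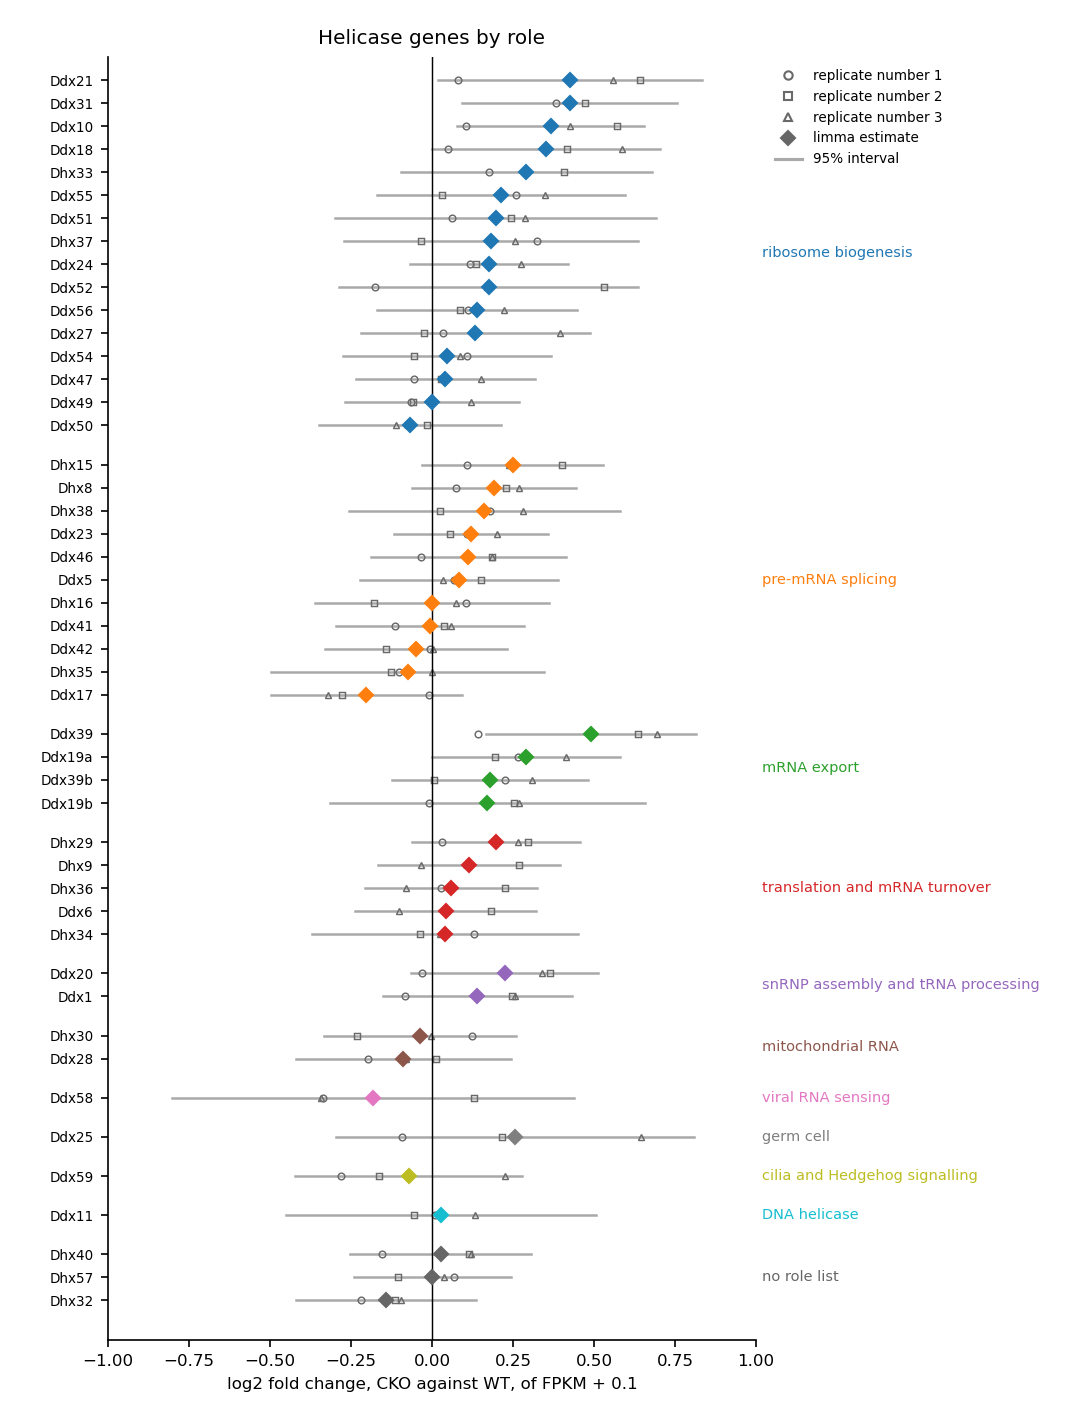
Log2 fold change of FPKM + 0.1 (CKO against WT) for the 47 helicase genes, grouped by role. Diamonds are limma estimates, grey lines their 95% intervals, and open symbols the difference between the CKO and WT libraries of each replicate number. Of the 16 ribosome biogenesis genes, 14 sit above 0.

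Helicases of ribosome biogenesis formed the largest role group, with 16 genes. Of these, 14 were above 0 and 2 below, with a median log2 fold change of 0.18, and 0 passed the adjusted threshold with or without the block. Its median was 0.09, 0.11 and 0.28 between same-numbered libraries 1, 2 and 3. Outside this group the other 31 helicase genes had a median of 0.06, with 21 above 0.

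*Ddx21* (ENSMUSG00000020075, chromosome 10 of GRCm38 from 62580251 to 62602281), a nucleolar helicase that couples ribosomal DNA transcription to ribosomal RNA processing, had 54.3, 35.6 and 36.9 FPKM in WT replicates 1, 2 and 3 and 57.4, 55.5 and 54.3 FPKM in CKO. WT replicate 1 stood close to the CKO libraries and the other WT libraries well below, though the groups did not overlap. The log2 fold change was 0.43 (SE 0.18; adjusted *p* = 0.566 by limma), with differences of 0.08, 0.64 and 0.56 between the libraries numbered 1, 2 and 3.

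*Ddx31* (chromosome 2 from 28840406 to 28905571), needed for early steps of the large ribosomal subunit, had 6.58, 5.34 and 5.20 FPKM in WT and 8.60, 7.45 and 7.01 FPKM in CKO. Each CKO library was above every WT library, and the differences by number were alike, at 0.38, 0.47 and 0.42. The log2 fold change was 0.43 (SE 0.14; adjusted *p* = 0.483 by limma), resting on 401 to 591 reads per library. *Ddx10* (chromosome 9 from 53098635 to 53248053), which acts in small subunit assembly, had 17.6, 15.9 and 16.1 FPKM in WT and 18.9, 23.6 and 21.6 FPKM in CKO. CKO replicate 1 lay only just above the highest WT library. Its log2 fold change was 0.37 (SE 0.12; adjusted *p* = 0.490 by limma).

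*Ddx18*, a nucleolar helicase named after its values were seen, had 42.4, 44.6 and 38.3 FPKM in WT and 43.9, 59.6 and 57.6 FPKM in CKO. CKO replicate 1 fell within the WT range and the other CKO libraries lay above it. The log2 fold change was 0.35 (SE 0.15; adjusted *p* = 0.600 by limma).

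Replicates 2 and 3 alone, a comparison added after the data were seen, called 5 helicase genes higher in CKO (7.05% of all genes were called higher) and 0 lower. They were *Ddx39* (log2 fold change 0.66, limma adjusted *p* = 0.000366), *Ddx21* (0.60, adjusted *p* = 0.0014), *Ddx10* (0.50, adjusted *p* = 0.00604), *Ddx18* (0.50, adjusted *p* = 0.00867) and *Ddx31* (0.45, adjusted *p* = 0.0180). Over all alternatives the highest adjusted *p* of each of these 5 genes was 1. That upper end was shared by all 43 genes followed singly, so it does not tell genes apart. The helicase share was 10.6%, near that of all genes. Except for *Ddx31*, their differences between the libraries numbered 1 were at most 0.14.

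Upstream sequences are shown for members of this group that moved together in replicates 2 and 3, and for *Ddx17*, the gene that was lower with no overlap. RefSeq promoters of GRCm38.p6 were found for 42 of the 47 genes, and *Ddx39*, *Ddx6*, *Ddx11*, *Ddx23* and *Dhx38* were not in the table. Bases before the start site are given 5′ to 3′ on the gene's strand, and capitals mark CCGGAAG or its reverse complement, the core of an ETS factor motif, searched for after the sequences had been seen.
Ddx10 (chr9:53248113-53248362, minus strand): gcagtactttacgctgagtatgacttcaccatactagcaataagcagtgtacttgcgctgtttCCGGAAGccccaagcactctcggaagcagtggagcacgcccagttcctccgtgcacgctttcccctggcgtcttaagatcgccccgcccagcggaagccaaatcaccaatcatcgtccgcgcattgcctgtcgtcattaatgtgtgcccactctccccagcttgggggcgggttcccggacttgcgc
Ddx18 (chr1:121567990-121568230, minus strand): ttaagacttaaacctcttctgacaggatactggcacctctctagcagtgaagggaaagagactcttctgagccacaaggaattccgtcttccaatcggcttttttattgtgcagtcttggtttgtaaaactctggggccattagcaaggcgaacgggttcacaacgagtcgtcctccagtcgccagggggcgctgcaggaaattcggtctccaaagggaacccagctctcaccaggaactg
Ddx21 (chr10:62602299-62602548, minus strand): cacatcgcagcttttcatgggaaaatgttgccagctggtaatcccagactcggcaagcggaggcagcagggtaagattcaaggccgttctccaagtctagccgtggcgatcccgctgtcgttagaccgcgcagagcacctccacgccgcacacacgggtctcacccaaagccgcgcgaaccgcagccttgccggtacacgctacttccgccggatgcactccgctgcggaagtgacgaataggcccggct
Ddx17 (chr15:79546742-79546991, minus strand): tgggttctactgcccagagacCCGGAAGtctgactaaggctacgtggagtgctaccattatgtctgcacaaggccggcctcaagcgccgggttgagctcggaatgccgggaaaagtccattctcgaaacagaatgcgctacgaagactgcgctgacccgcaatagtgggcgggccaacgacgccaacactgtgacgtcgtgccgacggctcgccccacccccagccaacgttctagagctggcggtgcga
For *Ddx18*, 241 of the 250 bases searched are shown, without those in its own annotated exon. The *Ddx21* window also holds an exon of an annotated noncoding transcript that starts from the same promoter. The window before *Ddx31* overlaps an exon of a protein-coding neighbour and is not shown.

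In windows of 250 bases before the start, searched on both strands, CCGGAAG was present for 14 of the 42 helicase genes (33.3%). It was in 14.3% of the promoters of 9539 tested genes, and in 6.91% of all 32851 promoters, which include genes not expressed here. Since this motif was picked with the helicase sequences in view, the shares are a description only. The E-box CACGTG was present for 3 helicase genes (7.14%, against 8.63% of tested genes and 6.02% of all promoters). The cytosine patch CCCTCCC was also present for 3 (7.14%, against 25.5% and 19.7%). Of the 5 genes examined above, *Ddx10* and *Ddx17*, which differ in direction, each held CCGGAAG once. These matches describe the letters only.

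**Figure D2:**
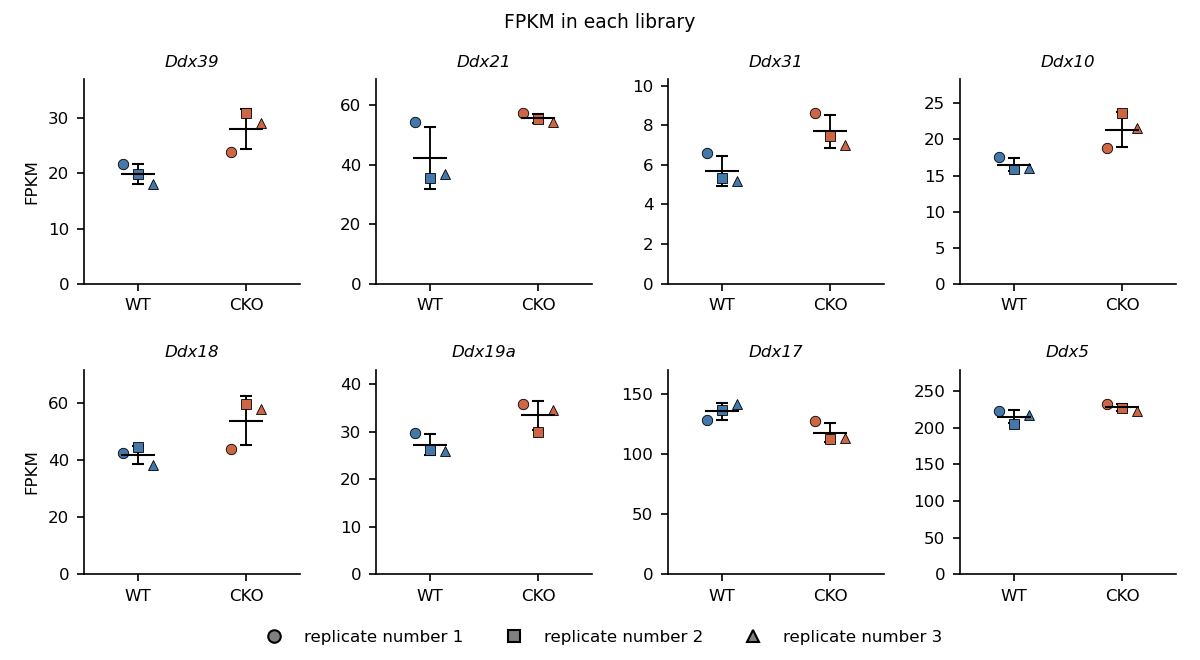
FPKM of 8 helicase genes in each WT (blue) and CKO (orange) library, with symbols for the replicate number and bars for the mean and SD (n = 3). In *Ddx39*, *Ddx10* and *Ddx18*, CKO replicate 1 lies nearer to the WT libraries than CKO replicates 2 and 3 do.

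Some of the other ribosome biogenesis genes differed by replicate number in both groups. *Ddx51*, named after its values were seen, had 10.2, 6.40 and 6.57 FPKM in WT and 10.6, 7.59 and 8.04 FPKM in CKO, so both libraries numbered 1 exceeded the others. *Ddx52*, named likewise, went the other way, with 24.8 and 21.9 FPKM in the libraries numbered 1 and 26.5 to 38.3 FPKM in the rest. Over the family, both libraries numbered 1 lay above all others for 14 genes (29.8%, against 22.9% of all genes) and below all others for 5 (10.6%, against 25.0% of all genes).

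**Figure D3:**
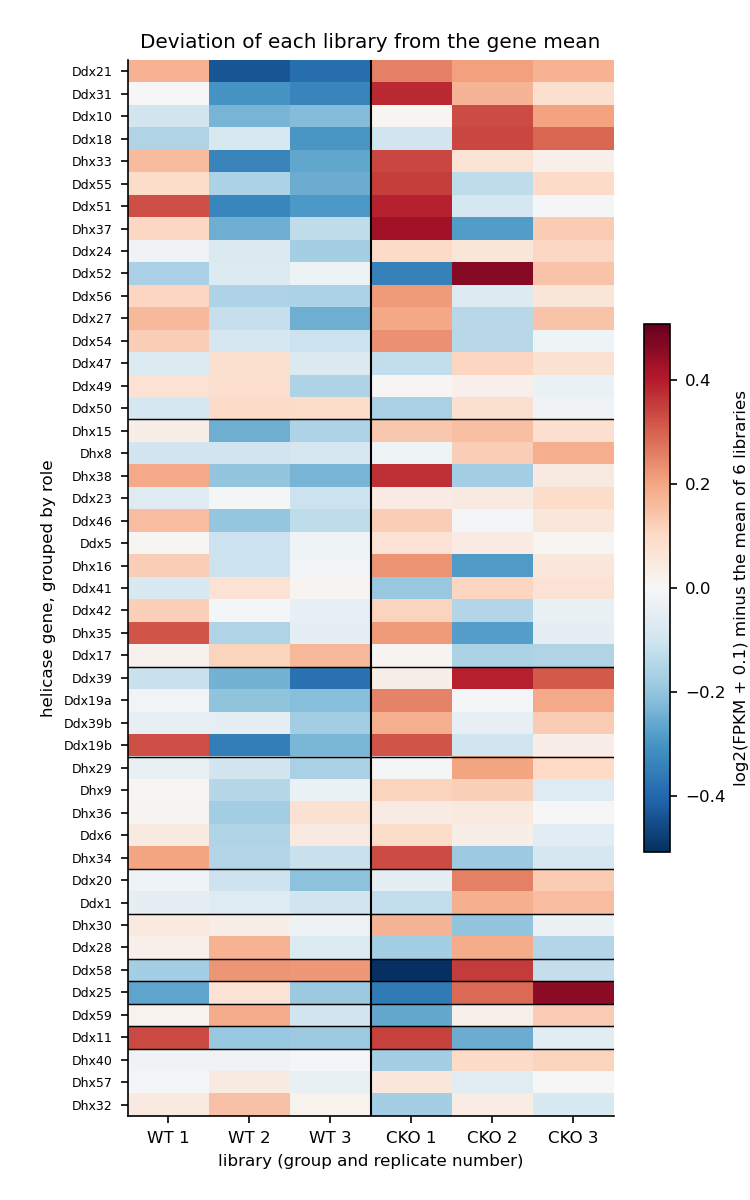
Deviation of each library from the mean of the 6 libraries, as log2(FPKM + 0.1), for the 47 helicase genes in role order. Several genes, such as *Ddx51* and *Ddx11*, are high in both WT 1 and CKO 1, whereas *Ddx39* and *Ddx18* are high in CKO 2 and CKO 3.

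All 4 mRNA export helicases had log2 fold changes above 0, with a median of 0.24, and 0 passed the adjusted threshold with or without the block. The median difference was 0.18, 0.22 and 0.36 for numbers 1, 2 and 3. *Ddx39* (ENSMUSG00000005481, chromosome 8 from 83715177 to 83726892), a paralog of *Ddx39b* in the export machinery, had 21.7, 19.9 and 18.0 FPKM in WT replicates 1, 2 and 3 and 23.9, 30.9 and 29.2 FPKM in CKO. Every CKO library was above every WT library, with CKO replicate 1 nearest to them. The log2 fold change was 0.49 (SE 0.14; adjusted *p* = 0.395 by limma, or 0.0534 in the blocked model), the largest in the family. With voom and the block the adjusted *p* was 0.0350. *Ddx39* exons share 895 bases with *Adgre5* on the opposite strand, and whether the counting used the strand is not given in the sources used here, so its level is less certain. Exon bases are shared with another annotated gene by 12 of the 47, among the genes named here also *Ddx5* (168 bases), *Ddx39b* (167 bases), *Ddx59* (153 bases), *Dhx30* (114 bases on its own strand and 123 on the other) and *Ddx17* (4 bases).

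*Ddx19a*, which releases mRNA at the cytoplasmic face of the nuclear pore, had 29.8, 26.1 and 25.9 FPKM in WT and 35.9, 29.9 and 34.5 FPKM in CKO. The groups did not overlap, by a narrow margin between WT replicate 1 and CKO replicate 2. Its log2 fold change was 0.29 (SE 0.12; adjusted *p* = 0.597 by limma). *Ddx39b* had 124, 123 and 113 FPKM in WT and 145, 124 and 139 FPKM in CKO. CKO replicate 2 lay just below WT replicate 1, so the groups overlapped.

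Splicing helicases were the second group by size and the least uniform in direction. Of 11 genes, 6 were above 0 and 5 below, with a median of 0.08 and 0 past the adjusted threshold with or without the block. By replicate number the median was 0.07, 0.04 and 0.07. *Dhx15*, which takes apart spent spliceosomes, had 51.7, 42.6 and 45.4 FPKM in WT and 55.7, 56.2 and 53.6 FPKM in CKO. All CKO libraries were higher, with a log2 fold change of 0.25 (SE 0.12; adjusted *p* = 0.649 by limma). *Dhx8*, which frees the spliced mRNA, had 21.0 ± 0.133 FPKM (SD, n = 3) in WT and 22.1, 24.6 and 25.5 FPKM in CKO, with no overlap. The log2 fold change of *Dhx8* was 0.19 (SE 0.11).

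*Ddx5* and *Ddx17* are close paralogs that work as a pair in splicing and microRNA processing. *Ddx5* had 222, 205 and 218 FPKM in WT and 233, 228 and 223 FPKM in CKO, and the groups were separated by under 1 FPKM. Its log2 fold change of 0.08 (SE 0.13) became -0.038 with quantile normalization, -0.023 with the same sum without globin genes and -0.013 with recovered reads as depth. Without single libraries it ran from 0.05 to 0.11. *Ddx17* (chromosome 15 from 79527736 to 79546741) had 128, 136 and 142 FPKM in WT and 127, 113 and 113 FPKM in CKO. Of the 47 it was the only gene with all CKO values below all WT values, CKO replicate 1 by under 1 FPKM. Its log2 fold change was -0.20 (SE 0.13; adjusted *p* = 0.739 by limma).

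Ratios between paralogs within a library do not depend on a scaling by 1 factor per library, though quantile normalization can change them. They were computed for 4 pairs chosen after the values were seen and are given without a test. The ratio of *Ddx5* to *Ddx17* was 1.74, 1.50 and 1.54 in WT and 1.83, 2.02 and 1.97 in CKO, with no overlap, although WT replicate 1 and CKO replicate 1 were close. That separation restates the values above, since all CKO libraries were higher for *Ddx5* and lower for *Ddx17*. *Ddx21* exceeded *Ddx50*, its nucleolar paralog and neighbour on chromosome 10, by ratios of 4.12, 2.38 and 2.47 in WT and 4.60, 3.75 and 3.94 in CKO. WT replicate 1 fell inside the CKO range here. *Ddx50* alone had a log2 fold change of -0.07, which was -0.0021 without CKO replicate 1 and -0.13 without WT replicate 1. *Ddx39* to *Ddx39b* gave 0.175, 0.161 and 0.160 in WT and 0.166, 0.250 and 0.210 in CKO, where CKO replicate 1 fell inside the WT range. For *Ddx19a* to *Ddx19b* the ratios overlapped, with means of 7.92 ± 1.39 in WT and 8.51 ± 0.702 in CKO (SD, n = 3).

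**Figure D4:**
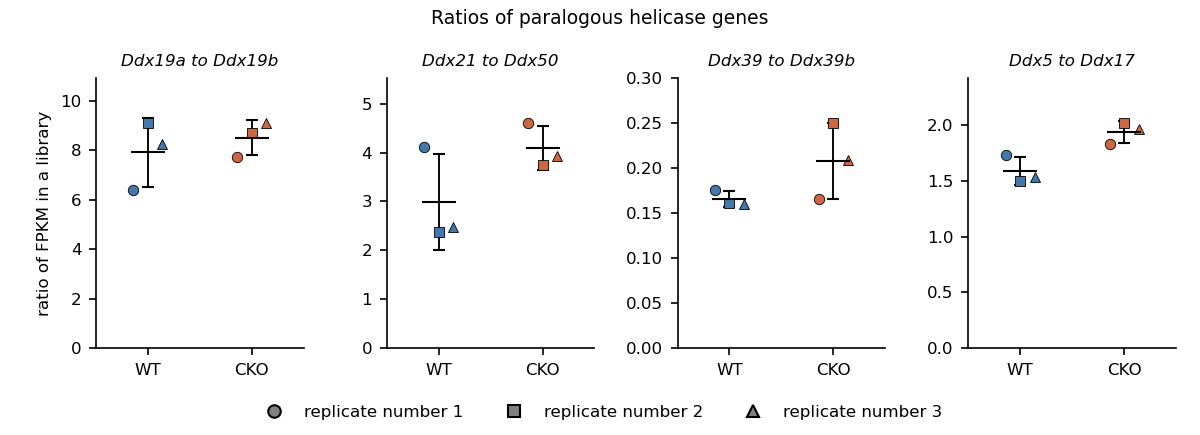
Ratio of FPKM between 4 pairs of paralogous helicase genes in each library, with the mean and SD (n = 3) of WT (blue) and CKO (orange). Only the ratio of *Ddx5* to *Ddx17* separates the groups, at 1.50 to 1.74 in WT and 1.83 to 2.02 in CKO, as the levels of each gene already did.

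Translation and mRNA turnover helicases numbered 5, all above 0, with a median of 0.06 and 0 called with or without the block. This direction was not shared by all libraries: the median was 0.05 and 0.22 for numbers 1 and 2 but -0.03 for number 3, where 2 of the 5 were higher in CKO. *Dhx29*, which helps ribosomes scan structured leaders, had 12.9, 12.4 and 11.8 FPKM in WT and 13.2, 15.3 and 14.2 FPKM in CKO. The groups did not overlap, with a log2 fold change of 0.20 (SE 0.11; adjusted *p* = 0.710 by limma). *Dhx9*, the most abundant of them, had 72.5, 65.1 and 70.5 FPKM in WT and 78.0, 78.5 and 68.9 FPKM in CKO, and the groups overlapped.

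In the smaller role groups, WT and CKO libraries overlapped for every gene. *Ddx1*, part of the tRNA ligase complex, had 38.9 ± 0.777 FPKM in WT and 43.1 ± 4.95 FPKM in CKO (SD, n = 3), and CKO replicate 1 was lowest of all libraries. *Dhx30*, which acts on mitochondrial RNA, had 12.1 ± 0.332 and 11.8 ± 1.55 FPKM. *Ddx59*, linked to cilia and Hedgehog signalling in limb and face development, had 4.52 ± 0.466 and 4.31 ± 0.599 FPKM, a log2 fold change of -0.07 (SE 0.15). *Ddx11*, a DNA helicase of sister chromatid cohesion, had 7.96 ± 1.79 and 8.12 ± 1.78 FPKM. *Ddx58* had 0.879 ± 0.148 and 0.782 ± 0.266 FPKM on 69 to 163 reads, and *Ddx25*, best known from male germ cells, had 1.55 ± 0.21 and 1.92 ± 0.554 FPKM. In each of these 6 genes the groups overlapped.

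Partner proteins and other RNA helicases were taken from lists drawn up from textbook knowledge. Of 41 listed cofactors of these helicases, 40 were tested, with 30 above 0 and a median of 0.12, and 0 were called. With the replicate block, 2 were lower (1.68% of all genes) and 0 higher (1.13% of all genes). Replicates 2 and 3 alone called 7 higher and 3 lower, where 7.05% of all genes were called higher and 984 of the 12305 lower. Voom with the block called the same 2 lower (2.78% of all genes) and 1 higher (1.56% of all genes), *Nkrf*, a partner of *Dhx15* named after its values were seen (log2 fold change 0.46 in the FPKM fit, adjusted *p* = 0.0487 by limma voom with the block and 0.00523 to 1 over the alternatives). *Lsm14b*, a partner of *Ddx6* in mRNA storage granules, had 50.8, 49.1 and 48.6 FPKM in WT and 41.4, 25.8 and 33.0 FPKM in CKO. All CKO libraries were lower, with a log2 fold change of -0.59 (SE 0.18; adjusted *p* = 0.416 by limma, or 0.0281 in the blocked model). *Rbm5*, a splicing factor whose G-patch activates *Dhx15*, had 15.2, 13.2 and 13.4 FPKM in WT and 12.4, 8.85 and 9.64 FPKM in CKO. Here too the groups did not overlap, with a log2 fold change of -0.45 (SE 0.15; adjusted *p* = 0.490 by limma, or 0.0453 in the blocked model). Over the alternatives, the adjusted *p* ran from 0.000209 to 1 for *Lsm14b* and from 0.00415 to 1 for *Rbm5*. *Eif4g2*, the most abundant cofactor, had a log2 fold change of 0.14, and 0.09 to 0.19 without single libraries.

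Of 17 tested RNA helicases under other symbols, 12 were above 0, with a median of 0.03, and 0 were called with or without the block. *Eif4a1*, the translation initiation helicase, had 278, 324 and 287 FPKM in WT and 301, 483 and 431 FPKM in CKO, with CKO replicate 1 inside the WT range (log2 fold change 0.42, SE 0.21). In replicates 2 and 3 alone its limma adjusted *p* was 0.0220, and over the alternatives it ran up to 1. *Snrnp200*, which unwinds U4 from U6 RNA in the spliceosome and was named after its values were seen, had 48.6, 41.4 and 42.4 FPKM in WT and 59.7, 61.7 and 55.6 FPKM in CKO. All its CKO libraries were higher, with a log2 fold change of 0.42 (SE 0.12; adjusted *p* = 0.402 by limma, or 0.0626 in the blocked model). Its adjusted *p* was 0.0114 in replicates 2 and 3 alone and 0.0477 with voom and the block, and over the alternatives it reached 1. *Eif4a1* and *Snrnp200* were the 2 of the 17 called higher in replicates 2 and 3 alone (7.05% of all genes), and *Snrnp200* the 1 with voom and the block (1.56% of all genes). Among 10 tested genes of the interferon response, a list that holds relays of the *Ddx58* signal beside induced genes, 7 were above 0 and 0 were called with or without the block. Replicates 2 and 3 alone called 2 of them higher (7.05% of all genes) and 2 lower (984 of the 12305), and voom with the block called 1 lower (2.78% of all genes), *Irf9*, named after its values were seen (log2 fold change -0.55 in the FPKM fit, adjusted *p* = 0.0375 by limma voom with the block and 0.00581 to 1 over the alternatives). *Irf3*, the most abundant, had a log2 fold change of 0.10, and 0.0007 to 0.20 without single libraries.

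Cell type markers moved between libraries as well. Erythroid markers, all 12 above 0.5 FPKM and led by *Hbb-y*, summed to 37854, 63332 and 64060 FPKM in WT and 30882, 143029 and 85573 FPKM in CKO. They were thus highest in CKO replicates 2 and 3, the libraries in which *Ddx39*, *Ddx10* and *Ddx18* were highest, and their part in those differences was not tested. Macrophage markers (10 of 10 above 0.5 FPKM, led by *Lyz2*) summed to 32.8, 33.9 and 42.2 FPKM in WT and 31.2, 57.4 and 40.7 FPKM in CKO. Ectoderm markers (11 of 11, led by *Krt5*) summed to 52.3, 73.5 and 85.2 FPKM in WT and 57.5, 87.6 and 87.3 FPKM in CKO. Muscle precursor markers (7 of 8, led by *Actc1*) were lowest in WT replicate 1, at 17.3, 50.6 and 47.0 FPKM in WT and 35.7, 69.3 and 57.5 FPKM in CKO. Neural crest and Schwann precursor markers (5 of 7, led by *Ngfr*) summed to 6.36, 15.0 and 14.6 FPKM in WT and 11.8, 16.1 and 14.8 FPKM in CKO. Endothelial markers (10 of 10, led by *Cdh5*) gave 40.6, 29.7 and 32.0 FPKM in WT and 20.5, 31.3 and 29.7 FPKM in CKO. All 10 had log2 fold changes below 0, with a median of -0.31, while by replicate number the median was -0.96, 0.02 and -0.07. Groups did not overlap for 2 of them (8.86% of all genes), *Tie1* at -0.54 (SE 0.17; adjusted *p* = 0.430 by limma) and *Egfl7* at -0.42 (SE 0.15; adjusted *p* = 0.514 by limma), both named after their values were seen. In the other lists, log2 fold changes were above 0 for 12 of 12 erythroid, 8 of 10 macrophage, 9 of 11 ectoderm, 7 of 7 muscle precursor and 5 of 5 neural crest markers tested. Replicates 2 and 3 alone called 6 erythroid, 1 macrophage, 1 ectoderm, 2 muscle precursor and 1 neural crest markers higher and 0 lower. In that comparison 7.05% of all genes were called higher. Voom with the block called 2 erythroid and 1 muscle precursor markers higher (1.56% of all genes). By replicate number the erythroid median was -0.31, 0.98 and 0.44 and the macrophage median 0.07, 0.70 and -0.23. Examples with CKO higher without overlap were *Trp63* of the ectoderm (0.29) and *Myod1* of muscle precursors (0.68, and 0.10 to 0.97 without single libraries), both named after their values were seen.

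Limb mesenchyme markers, all 13 above 0.5 FPKM and led by *Hoxd13*, summed to 511, 606 and 610 FPKM in WT and 570, 530 and 594 FPKM in CKO. Of these genes, 6 were above 0 and 7 below, with a median of -0.0033. The limb genes given next were named after their values were seen. *Tbx5*, a forelimb gene, had 20.3, 19.1 and 19.2 FPKM in WT and 15.3, 7.30 and 9.58 FPKM in CKO, all lower (log2 fold change -0.93, SE 0.24; adjusted *p* = 0.358 by limma, or 0.00734 in the blocked model, and 9.16e-08 to 1 over the alternatives). *Pitx1*, a hindlimb gene, had 37.7, 46.6 and 39.8 FPKM in WT and 48.9, 47.9 and 49.9 FPKM in CKO, with no overlap. Its log2 fold change was 0.25 (SE 0.12, adjusted *p* = 0.663 by limma and at lowest 0.230 over the alternatives), so it was never called. The hindlimb gene *Tbx4* overlapped between the groups. *Sox9*, a chondrogenic gene, was with *Tbx5* called lower in replicates 2 and 3 alone. It had 28.1, 28.9 and 26.5 FPKM in WT and 26.7, 17.8 and 20.6 FPKM in CKO, with CKO replicate 1 inside the WT range (log2 fold change -0.38, and -0.54 to -0.25 without single libraries; adjusted *p* = 0.585 by limma and 0.00408 to 1 over the alternatives). *Hoxa13*, a distal limb gene, had the highest log2 fold change of the list at 0.38, which was 0.18 without WT replicate 1, and its groups overlapped. Among the muscle precursor markers, *Actc1* was called higher with the block (log2 fold change 1.05, adjusted *p* = 0.0266 by limma, 0.00383 to 1 over the alternatives), and its groups overlapped. Its WT replicate 1 was lowest by far, at 2.37 FPKM, and CKO replicate 1 was next at 9.73 FPKM. Without WT replicate 1 the log2 fold change was 0.034. In replicates 2 and 3 alone, without either library numbered 1, it was 0.57 (adjusted *p* = 0.00383 by limma). No marker of these lists was at 0 in all libraries, and the part of these cell types in the helicase values was not tested.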

How the data were processed

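RNA-seq of 3 WT and 3 CKO limb bud samples was used, and samples of the other assays were not analysed here. Libraries were made with a stranded mRNA kit, and the authors deposited FPKM values of 22040 genes in 1 column per library. The submitters' processing notes name cutadapt 2.5, HISAT2 2.1.0 and featureCounts 1.6.3 among the tools, without roles, and mm10. GENCODE vM21 held 99.5% of the gene identifiers, and FPKM times merged exon length gave whole reads, within 0.1, for 92.6% of these genes, from which depth was taken.

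CKO was compared with WT by limma 3.58.1 in R 4.3.3 (eBayes with trend) on log2(FPKM + 0.1) for genes whose mean FPKM reached 0.5, with Benjamini-Hochberg adjustment over all of them. Summaries used Python 3.11.15 and pandas 2.3.3. Members and lists were chosen with earlier results of these data known. Genes named are *Hnrnpk*; helicase genes past the adjusted threshold in either model; the 8 largest rises and falls without overlap; the 4 most abundant; the most abundant of each role list; pathway genes called in either model and the most abundant of each list; and those next to the level threshold. Others are said to be named after their values were seen.

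Deviations from group means correlated by 0.64, 0.44 and 0.27 between same-numbered libraries, all above 0.1, so the numbers from the labels were taken to pair the libraries. The values set apart mainly number 1. Between WT 2 and CKO 3 the correlation was 0.49, above those within number 2 and within number 3. Between WT 3 and CKO 2 it was 0.31, above number 3 (0.27) but below number 2 (0.44). Numbers 2 and 3 are thus not told apart. Whether replicates were separate embryos or pools is not stated for RNA-seq, so *p* values measure the spread between these samples. Alternatives were other pseudocounts, filters and scalings, eBayes without trend, the replicate block and each library left out. Rescaling to recovered reads, replicates 2 and 3 alone and voom on recovered reads, without and with the block, were added after the data were seen.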

Additional observations from a re-analysis of the deposited data

How the results depend on the processing

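Over 19 alternatives, 0 helicase genes were lower in CKO at the adjusted threshold and 0 passed the fold threshold with the unadjusted *p*. The count higher in CKO was 0 with the replicate block and in all other alternatives except 5 in replicates 2 and 3 alone and 2 with voom and the replicate block. With 1 library left out at a time it was 0. The replicate block left the median log2 fold change of the helicase genes at 0.12 and changed no call of a helicase gene in the fit on FPKM. Added to voom, it moved the count from 0 to 2, with *Ddx39* going from an adjusted *p* of 0.390 to 0.0350 and *Ddx31* from 0.494 to 0.0481 by limma. Among the listed partner, pathway and marker genes it added, on FPKM, calls for *Lsm14b*, *Rbm5*, *Tbx5* and *Actc1* and no other. The median log2 fold change of the helicase genes was 0.014 with the same sum without globin genes and 0.024 with recovered reads as depth, where rescaling shifts all genes, and lay between 0.07 and 0.15 with 1 library left out.

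Among 43 genes followed singly, 771 of 816 values kept their direction and side of the threshold, 30 passed it and 15 changed sign. Sign changes were seen for *Ddx5* with quantile normalization (-0.038), the same sum without globin genes (-0.023) and recovered reads as depth (-0.013), for *Irf3* with that sum (-0.0096), for *Ddx11* with that sum (-0.077) and with that depth (-0.067) and for *Ddx59* in replicates 2 and 3 alone (0.032). Leaving out each library in turn gave ranges that crossed 0 for *Ddx11* (-0.14 to 0.20), *Ddx52* (-0.012 to 0.39), *Ddx58* (-0.41 to 0.026), *Ddx59* (-0.15 to 0.041) and *Dhx30* (-0.13 to 0.052). The cause was not tested. Depth limits *Ddx58* most, with 69 reads in its shallowest library.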
